A study of Saccharomyces cerevisiae with 12 samples.

Results

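The response of EC1118, a commercial wine strain of Saccharomyces cerevisiae, to sterol and fatty acid supplements was measured on 6 of the series' 12 arrays, 3 from cultures in FSJ and 3 from cultures in SJ. SJ was a synthetic grape juice with 200 g/l glucose, organic acids, yeast nitrogen base and ammonium sulphate at pH 3.3, and FSJ was SJ plus ergosterol and oleic acid at 15 mg/l each. Per the labels, the groups were 3 biological replicates each, both media were inoculated at 1000000 cells/ml from a washed preculture grown for 24 h in lipid-free SJ at 28°C, and cells were taken at 60 h. The other 6 arrays hold the wild-type strain M25 in the same media and are used here for the spread between replicates and for the test of a strain difference. Of 9275 yeast probe sets, 7349 gave a signal over the background on at least 3 arrays, and 5360 genes were read from them. Cell density, viability, residual sugar and oxygen were not analysed here, so medium and growth stage at 60 h cannot be told apart. The arrays measure shares of total RNA, so that fewer cells expressing a gene and less RNA per cell cannot be told apart either.

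Yeast needs molecular oxygen to make ergosterol and to desaturate fatty acids, so a culture that has used up its oxygen depends on lipids taken up or stored earlier. Ergosterol and oleic acid are therefore known as anaerobic growth factors, and wine yeast takes them from grape solids. Sterol synthesis genes are controlled by Upc2 and Ecm22, which respond to sterol level, and by Hap1, which responds to heme. Rox1 and Mot3 are repressors of hypoxic genes, which include the seripauperin (PAU) and DAN/TIR families of cell wall mannoproteins.

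Some arrays stood apart from their group. Each array's background, taken as the 25th percentile of its yeast signals, was 19.1 to 21.4 over the 6 EC1118 arrays. The 3 SJ arrays correlated with each other at 0.975 to 0.982 over the log2 signals, while the FSJ arrays gave 0.944 between replicates 1 and 2, 0.962 between 1 and 3 and 0.919 between 2 and 3. On the first principal component of the 6 arrays (47.0% of the variance) FSJ replicate 2 lay at 53.4 and the other 5 between -17.1 and -1.86. On the second component (23.3%) FSJ replicate 3 lay at -36.1 and the other 5 between -0.98 and 15.4. FSJ replicates 2 and 3 thus each led a component, and counts and leading values below are given with and without replicate 2.

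**Figure D1:**
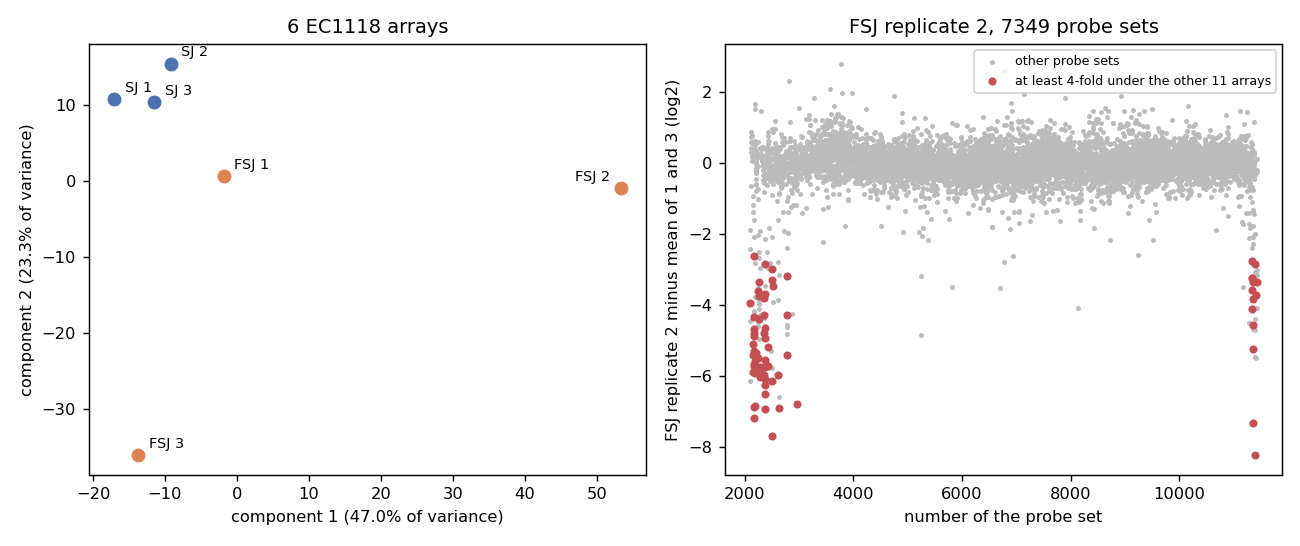
The 6 EC1118 arrays on the first and second principal components of their log2 signals, with the share of the variance on each axis, and, on the right, the log2 signal of FSJ replicate 2 minus the mean of replicates 1 and 3 for each kept probe set, ordered by probe set number. FSJ replicate 2 lies at 53.4 on the first component, and the 69 probe sets at least 4-fold under all the other 11 arrays sit at the low and high ends of the numbers.

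In FSJ replicate 2, 69 kept probe sets lay at least 4-fold under all the other 11 arrays, against 0 to 9 on each of the others. All 69 carried probe set numbers in a pair of short ranges, 55 between 2103 and 2956, where 434 probe sets were kept, and 14 between 11344 and 11426, where 53 were kept. The 69 carried 35 distinct symbols, and 47 of the 69 were family probe sets, which can detect near-identical copies. Those that stood for a gene covered 20 genes, of which 11 lie on chromosome I, a chromosome that holds 79 of the 5360 genes. BOL3, an iron-sulfur cluster assembly factor, gave 0.9 on this array and 122 to 197 on the other 11. USO1, a vesicle tethering protein, gave 0.4 against 40.4 to 82.8. GCN1, a regulator of the Gcn2 kinase, gave 13.6 against 464 to 853. The acetyl-CoA synthetase gene ACS1 gave 9.9 against 217 to 545, and YHB1, the nitric oxide dioxygenase, gave 389 against 2196 to 3084. None of the 20 genes was called in the comparison of media, and of the 79 genes measured in those number ranges only ERG12 was. The spiked bacterial transcript BioDn read 432 on this array with its 3' probe set and 1072 to 1301 on the other EC1118 arrays, and CreX read 1156 against 2335 to 2872. The weaker spikes were not low on it: BioC read 238 with its 3' probe set against 157 to 205, and BioB read 108 with its 5' probe set against 73.0 to 95.7. The part of these readings in any other value of the array was not tested.

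The yeast cultures hold no other labelled cell type, and the markers of haploid cells and of sporulation gave no call. Of 18 haploid-specific genes 14 were measured, and their summed signal was 1158 to 1649 on the SJ arrays and 1180 to 2422 on the FSJ arrays. The mating endonuclease gene HO read 15.9 to 27.7, the pheromone exporter STE6 13.1 to 21.0 and the agglutinin AGA2 8.9 to 15.2, all close to the background. These are dim members, and only 2 of the 14 were under the background on all 6 arrays. FAR1 read 34.0 to 53.9 in SJ and 26.3 to 34.4 in FSJ, over the background on every EC1118 array. The highest sum was in FSJ replicate 3. MF(ALPHA)1, the alpha-factor precursor, read 1512 there and 407 to 838 on the other EC1118 arrays.

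More genes were called lower than higher with lipids in EC1118. Of 5360 genes, 113 passed the test (2.11%), 42 of them higher with lipids (0.784%) and 71 lower (1.32%). The test was limma's moderated test with Benjamini-Hochberg adjustment and a threshold of 0.05, and all adjusted p-values below are from limma. Without FSJ replicate 2 the count was 78 (1.46%), with 26 higher (0.485%) and 52 lower (0.97%), and 69 genes were called in both fits. Centring the arrays on their medians turned the split from 42 higher and 71 lower into 31 and 88. The 3 FSJ arrays and the 3 SJ arrays did not overlap for any of the 113 genes, but the same held for 1097 genes in all (20.5%), 750 of them higher (14.0%) and 347 lower (6.47%). The largest changes were falls: of 46 called genes with a fold of 2 or more, 36 fell and 10 rose. The median log2 difference of all genes was 0.079.

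**Figure D2:**
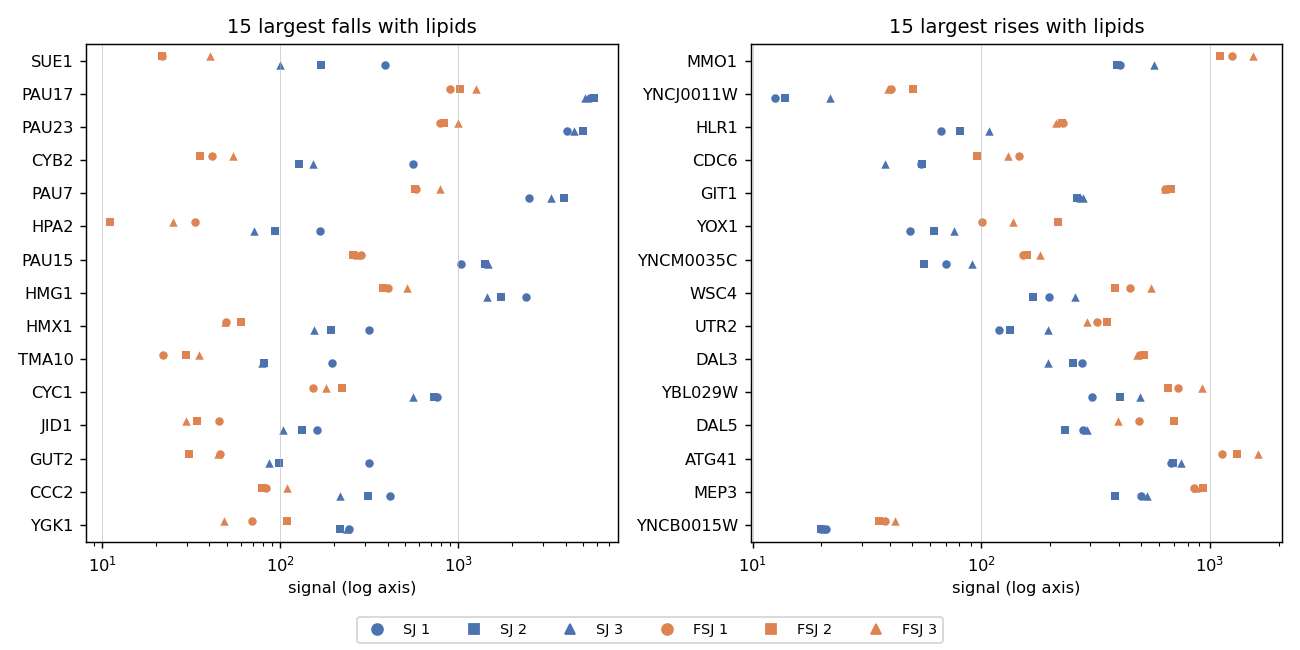
Signal of the called genes with the largest falls and the largest rises in EC1118, on a log axis, with 1 point per array, the media in separate colours and the replicates by shape. For every gene shown the 3 points of one medium lie apart from the 3 of the other.

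The largest median fall of any list was that of the seripauperins, small cell wall mannoproteins known from anaerobic growth. All 10 of the 24 PAU genes that were measured fell, against a background of 1.32% for lower calls, and all 10 fell without replicate 2 as well. PAU17 read 5451, 5758 and 5158 in SJ replicates 1 to 3 and 901, 1024 and 1252 in FSJ replicates 1 to 3. Every FSJ array thus lay far under every SJ array, and the fall was 5.19-fold (log2 -2.38, SE 0.13, adjusted p = 1.39e-06). Without replicate 2 it was 5.13-fold. PAU23 fell 5.19-fold too, from a mean of 4494 ± 460 to 867 ± 107 (SD, n = 3 each). PAU7 fell 4.97-fold and PAU15 4.80-fold. Without replicate 2 these values were 5.08, 4.69 and 4.68-fold in that order. The other 6, named after their values were seen, fell by less: PAU3 by 1.66, PAU16 by 1.49, PAU10 by 1.08, PAU19 by 1.06, PAU13 by 0.79 and PAU4 by 0.62 on the log2 scale. The probes of all 10 may also detect near-identical members of the family, so how the fall divides among the copies is uncertain.

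The DAN and TIR mannoproteins, also known from anaerobic growth, had a smaller median fall than the PAU genes. Of 7 measured, 1 fell and none rose, the faller being PAU23, counted above under its other family, and the list median was -0.19 on the log2 scale. Over all genes lower calls made up 1.32%. Of the 7 members 6 lay below 0, all but TIR1. For 3 of the 7 the groups did not overlap and FSJ was lower, against 6.47% of all genes. DAN1 read 6033, 5602 and 5500 in SJ and 5091, 5090 and 4809 in FSJ, a difference of -0.19 (SE 0.07, adjusted p = 0.235). Its arrays did not overlap between media although the gene missed the threshold. TIR1 read 8408, 6575 and 5913 in SJ and 6160, 6864 and 8171 in FSJ, with overlapping groups and a difference of 0.03.

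Sterol synthesis genes fell at many steps. In the mevalonate part, which makes farnesyl diphosphate from acetyl-CoA, 3 of 11 genes fell and none rose (2 without replicate 2), and the list median was -0.46. The share of lower calls over all genes was 1.32%, and 0.97% without replicate 2. HMG1, the main HMG-CoA reductase and the rate-limiting enzyme of the pathway, read 2400, 1735 and 1451 in SJ and 404, 376 and 515 in FSJ. The lowest SJ array read more than 2-fold over the highest FSJ array, and the fall was 4.26-fold (log2 -2.09, SE 0.20, adjusted p = 0.000224; 3.99-fold without replicate 2). ERG8, phosphomevalonate kinase, read 1078, 1069 and 936 in SJ and 547, 511 and 560.1 in FSJ, a fall of 1.90-fold (adjusted p = 0.0011) and 1.85-fold without replicate 2. ERG12, mevalonate kinase, fell by 0.52 on the log2 scale, and gave -0.54 without replicate 2, no longer passing (adjusted p = 0.0655). The paralog HMG2 did not pass: it read 2834, 2133 and 2051 in SJ and 2345, 1874 and 2181 in FSJ, with overlapping groups and a log2 difference of -0.12 (SE 0.12, adjusted p = 0.674). The mevalonate diphosphate decarboxylase gene MVD1 gave -0.52 (adjusted p = 0.0931).

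From squalene to ergosterol, 10 of 18 genes fell and none rose, and 4 fell without replicate 2. All 18 fitted differences were below 0, 16 of the 18 had non-overlapping groups with FSJ lower, and the median was -0.51, against 0.079 for all genes. Of all 5360 genes 2017 lay below 0, and 6.47% had non-overlapping groups with FSJ lower. Lower calls made up 1.32% of all genes, and 0.97% without replicate 2. ERG9, squalene synthase, which commits farnesyl diphosphate to sterols, fell by 0.49 (SE 0.09, adjusted p = 0.0111; 0.0401 without replicate 2). ERG1, squalene epoxidase, the first step that uses oxygen, fell by 0.54 (-0.49, adjusted p = 0.106 without replicate 2), and ERG11, the lanosterol demethylase, by 0.46 (adjusted p = 0.044; 0.0173 without replicate 2). The fitted falls of these steps were smaller than that of HMG1.

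Later steps fell too. ERG2, the sterol isomerase, read 4697, 4282 and 3996 in SJ and 2796, 3040.2 and 2757 in FSJ, a fall of 1.51-fold (log2 -0.59, SE 0.10, adjusted p = 0.00982) and 1.55-fold without replicate 2. ERG24, a sterol reductase, fell by 0.71, and ERG3, the desaturase, by 0.58. ERG5, the cytochrome P450 that desaturates the side chain, fell by 0.89, ERG6, the sterol methyltransferase, by 0.53 and ERG26, a decarboxylase, by 0.44 (these last named after their values were seen). Without replicate 2 the log2 values were -0.66 for ERG24 (adjusted p = 0.0689), -0.55 for ERG3 (0.0875), -0.90 for ERG5 (0.0763), -0.60 for ERG6 (0.0517) and -0.42 for ERG26 (0.103), so none of these 5 calls was kept. CYB5, cytochrome b5, the electron donor to several of these steps, fell by 0.81 (adjusted p = 0.00714; 0.0238 without replicate 2). ERG25, the methyl oxidase, gave -0.07 (adjusted p = 0.871), and DAP1, a heme-binding partner of Erg11, gave -0.71 (adjusted p = 0.0564). HMG1, ERG8, ERG9, ERG2 and CYB5 were called in all 6 fits that left out 1 EC1118 array. ERG24 was called in 3 of those fits, ERG3 in 2, and ERG12, ERG1 and ERG11 in 1 each, while ERG5 was called in none.

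**Figure D3:**
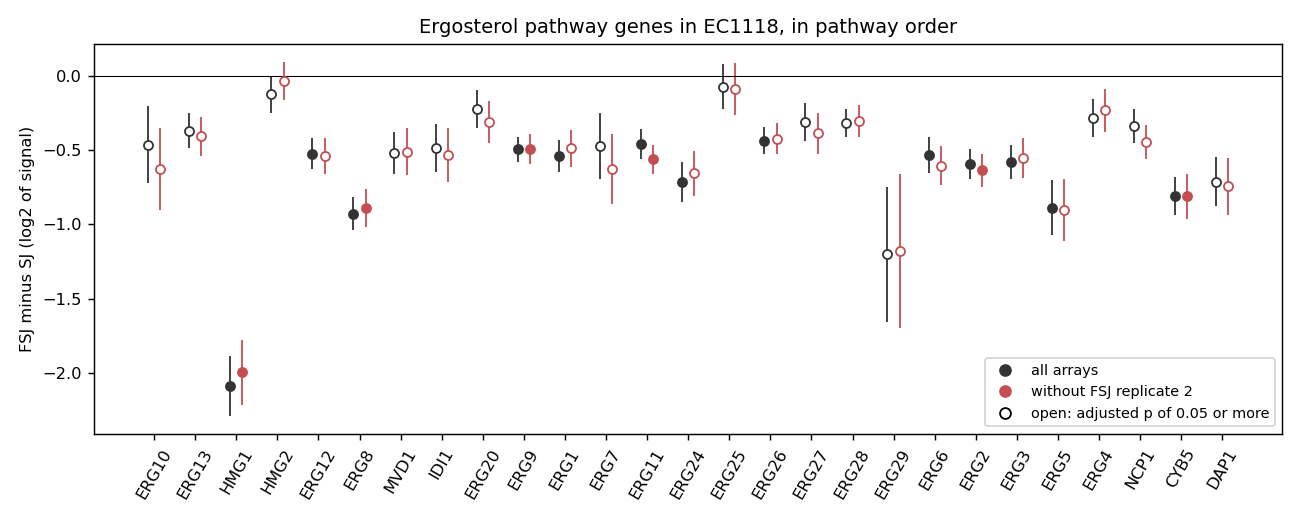
Log2 difference FSJ minus SJ in EC1118 for the genes of sterol synthesis in pathway order, with the SE of the fit as bars, the value without FSJ replicate 2 in red and open markers where the adjusted p was 0.05 or more. HMG1 is the lowest at -2.09, and all 18 genes from ERG9 onward lie below 0.

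Of 26 genes for sterol uptake, transport and esters, 2 fell in both fits, where lower calls made up 1.32% of all genes with all arrays and 0.97% without replicate 2. HES1, an oxysterol-binding protein homolog, read 161, 242 and 221 in SJ and 72.1, 74.4 and 63.3 in FSJ, a 2.94-fold fall (3.03-fold without replicate 2). YEH1, a steryl ester hydrolase that frees stored sterol, read 2128, 2040.1 and 1582 in SJ and 985, 1007 and 1042 in FSJ, a fall of 1.88-fold in both fits (log2 -0.91, SE 0.14). Neither gene's groups overlapped. The ABC transporters that import sterol under anaerobic conditions missed the threshold by little. AUS1 read 737, 756 and 750.2 in SJ and 469.7, 372 and 511 in FSJ (log2 -0.74, adjusted p = 0.0526), and PDR11 gave -1.04 (adjusted p = 0.0553). ARE2, the main sterol acyltransferase, gave -1.02 (adjusted p = 0.0516).

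Among 23 regulators of sterol and oxygen response, MOT3 fell and none rose, and without replicate 2 none passed. With lower calls at 1.32% of all genes, this single call is no result about the list. MOT3, a repressor of hypoxic genes, read 114, 169 and 120.0 in SJ and 56.8, 54.1 and 55.9 in FSJ, a fall of 2.38-fold (adjusted p = 0.0366). That call was lost in each of the 6 fits that left out 1 EC1118 array, with adjusted p = 0.105 without FSJ replicate 2 and log2 values of -1.36 to -1.07. ROX1, the heme-induced repressor, read 431, 433 and 397 in SJ and 187, 165 and 174 in FSJ, and its groups lay far apart. It nevertheless missed the threshold in the shared fit (log2 -1.26, SE 0.33, adjusted p = 0.087). UPC2, the sterol sensor, gave -0.58 (adjusted p = 0.143), its relative ECM22 0.28 and HAP1 -0.29.

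Fatty acid genes gave no call. Of 24 genes of fatty acid synthesis and desaturation none passed in either fit, and their median was 0.04 on the log2 scale. OLE1, the oxygen-dependent desaturase whose product is oleic acid, read 4777, 4857 and 4083 in SJ and 4331, 3796 and 3832 in FSJ. The groups overlapped, and the difference was -0.20 (SE 0.10, adjusted p = 0.347). ACC1, acetyl-CoA carboxylase, gave -0.11, and INO1, the inositol phosphate synthase that reports on phospholipid synthesis, gave 0.02. The other lipid lists were near 0: the medians were 0.00 for 28 phospholipid genes, -0.03 for 27 sphingolipid genes, -0.05 for 16 triacylglycerol and lipid droplet genes and -0.10 for 23 beta-oxidation genes. A few single genes of these lists passed, 1 of 28 phospholipid, 1 of 27 sphingolipid, 1 of 16 lipid droplet and none of 23 beta-oxidation genes. Over all genes higher calls made up 0.784% and lower calls 1.32%, so these single calls are no result about the lists. The phospholipid gene was GIT1, which rose (log2 1.27, adjusted p = 0.00078) and is described below. YSR3, a sphingoid base phosphate phosphatase, fell 2.28-fold, from 663 ± 137 to 287 ± 28.3 (SD, n = 3). HFD1, a fatty aldehyde dehydrogenase counted with the lipid droplet genes, fell by 0.74, and its call was lost without replicate 2 (adjusted p = 0.106).

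Some genes around cytochrome c fell. Among 40 respiratory chain and ATP synthase genes there were 4 falls and no rise (1 fall without replicate 2), and the median was -0.23. Lower calls made up 1.32% of all genes with all arrays and 0.97% without replicate 2, so the single fall of the second fit is near that share. CYC1, the main cytochrome c, read 756, 727 and 554 in SJ and 153, 223 and 180.4 in FSJ, a 3.67-fold fall (adjusted p = 0.00078) and 4.05-fold without replicate 2. CYT1, the cytochrome subunit of complex III, fell 2.04-fold (adjusted p = 0.0809 without replicate 2), and NDE1, the external NADH dehydrogenase, 1.76-fold (adjusted p = 0.0567 without replicate 2). CYC7, the hypoxic cytochrome c, gave -1.12 without passing (adjusted p = 0.232). COX5A, the aerobic subunit of cytochrome oxidase, gave -0.63 and COX5B, its hypoxic form, 0.07.

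The genes SUE1, CYB2 and GUT2 read high in SJ replicate 1. SUE1, which is needed for the breakdown of unstable cytochrome c, read 385, 169 and 99.4 in SJ and 21.6, 21.6 and 40.2 in FSJ. The fall was 7.01-fold (log2 -2.81, SE 0.44, adjusted p = 0.00547), and the FSJ values lay near the background. Without replicate 2 it was 6.32-fold. It was called in all 6 fits that left out 1 array. CYB2, the lactate dehydrogenase that passes electrons to cytochrome c, read 558, 127 and 152 in SJ and 41.5, 35.6 and 54.3 in FSJ, a 5.12-fold fall that was called in 4 of those 6 fits and lost without FSJ replicate 1 or 2 (adjusted p = 0.0631 without replicate 2). GUT2, the mitochondrial glycerol phosphate dehydrogenase, read 316, 98.8 and 86.5 in SJ and 45.8, 30.7 and 44.8 in FSJ and was lost without any 1 of the FSJ arrays (adjusted p = 0.126 without replicate 2). In all 3 genes SJ replicate 1 was the highest array by more than 2-fold, and the calls were made without it as well. The fitted log2 values were then -2.29 for SUE1, -1.69 for CYB2 and -1.22 for GUT2, against -2.81, -2.35 and -1.81 with all arrays.

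The other large falls came from genes of varied function. HMX1, heme oxygenase, read 315, 192 and 154 in SJ and 49.3, 60.3 and 49.2 in FSJ, a 3.99-fold fall (adjusted p = 0.00279) and 4.27-fold without replicate 2. CCC2, the copper-transporting ATPase that supplies the iron uptake oxidase, fell 3.40-fold, from 313 ± 98.1 to 90.1 ± 16.1 (SD, n = 3), and 3.19-fold without replicate 2. Neither gene's groups overlapped. Of 12 heme genes HMX1 was the sole call in both fits, which at 1.32% lower calls over all genes is no result about the list. In that list 9 lay below 0, where 2017 of all 5360 genes did. The list median was -0.29 against 0.079 for all genes, and without replicate 2 it was -0.17 against 0.080. The iron list did not follow its fallers. Of 32 iron regulon genes 2 fell, 1 rose and 25 lay above 0, with a median of 0.29. Lower calls made up 1.32% of all genes and higher calls 0.784%. Of 30 oxidative stress genes 1 fell, which at that share of lower calls is no result about the list. Of 30 heat shock genes none passed with all arrays, and 1 rose without replicate 2, where higher calls made up 0.485% of all genes. HEM13, the oxygen-requiring coproporphyrinogen oxidase, read 1630.4, 1862 and 2004 in SJ and 2117, 1626 and 901 in FSJ, with the lowest value in FSJ replicate 3. HPA2, a histone acetyltransferase, fell 4.93-fold, with 1 FSJ array (replicate 2, at 11.1) under the background, and 3.58-fold without that array. TMA10, a ribosome-associated protein, fell 3.80-fold, and its relative STF2, a hydrophilin, fell by 0.76 on the log2 scale. JID1, a J-domain protein of mitochondria, fell 3.63-fold, and YGK1, a nucleotidase, 3.24-fold (3.55-fold and 3.99-fold without replicate 2). The peroxiredoxin TSA2 fell by 0.85, and the cell wall proteins PST1 and CWP1 by 0.74 and 0.68. BAG7, a GTPase-activating protein outside the rule for named genes and chosen after its values were seen, had the lowest fitted value of the called genes. Its FSJ arrays were all under the background, which allows a fall of at least 1.25-fold.

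Genes under nitrogen catabolite repression formed the largest group of rises. Of 36 measured, 8 rose and 1 fell (5 and 1 without replicate 2), against backgrounds of 0.784% and 1.32%, with a median of 0.39. All 3 ammonium permease genes rose. MEP3 read 499, 385 and 534 in SJ and 854, 938 and 868 in FSJ (1.89-fold), and MEP1 read 507, 412 and 435 in SJ and 900.0, 728 and 726 in FSJ (1.74-fold, adjusted p = 0.00572). MEP2, the ammonium sensor, rose by 0.57 on the log2 scale. Without replicate 2 MEP3 rose 1.84-fold and MEP1 1.80-fold, and MEP2 gave 0.56 with an adjusted p of 0.05. The groups of these 3 genes did not overlap. MEP1 and MEP3 were called in all 6 fits that left out 1 EC1118 array and MEP2 in 3 of them.

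Some genes of allantoin use and some general permeases rose as well. DAL3, ureidoglycolate lyase, read 277, 252 and 196 in SJ and 497, 518 and 479 in FSJ, a 2.08-fold rise (adjusted p = 0.00227) and 2.04-fold without replicate 2. DAL5, the allantoate permease, rose 1.93-fold (log2 0.95, SE 0.18, adjusted p = 0.0173) and 1.66-fold without replicate 2, which was its highest array. DAL2, allantoicase, rose by 0.90 and GAP1, the general amino acid permease, by 0.79, and both missed the threshold without replicate 2 (adjusted p = 0.0552 and 0.108). DAL7, a malate synthase, did not pass (0.70, adjusted p = 0.220). PTR2, the peptide transporter, rose by 0.84 and by 0.88 without replicate 2. CAR1, arginase, was the member that fell, by 0.70 and without replicate 2 by 0.72. The urea transporter DUR3 gave 0.86, the repressor DAL80 0.82 (adjusted p = 0.071) and the activator GAT1 0.61, none of which passed. PUT4, the proline permease, gave -1.84 (adjusted p = 0.0628), with 889 in SJ replicate 1 beside 298 and 266.

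The other large rises came from genes of varied function. MMO1 had the largest, from 406, 393 and 569.6 in SJ to 1254, 1104 and 1551 in FSJ, a 2.87-fold rise (log2 1.52, SE 0.19, adjusted p = 0.00139; 3.10-fold without replicate 2). HLR1, a homolog of the cell wall regulator LRE1, read 66.7, 80.6 and 108 in SJ and 229, 225 and 213 in FSJ (2.66-fold, and 2.65-fold without replicate 2). GIT1, the permease for glycerophosphodiesters released from phospholipids, read 265, 264 and 279.6 in SJ and 637, 677 and 635 in FSJ. The 3 arrays of each group lay within a narrow span for GIT1, and the rise was 2.41-fold (adjusted p = 0.00078) and 2.36-fold without replicate 2. WSC4, a membrane protein of the stress sensor family, rose 2.24-fold (2.44-fold without replicate 2), and UTR2, a chitin transglycosylase of the cell wall, by 1.13 on the log2 scale (adjusted p = 0.128 without replicate 2).

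A few cell cycle genes rose. CDC6, which licenses replication origins, read 54.5, 54.9 and 37.9 in SJ and 146, 96.0 and 132 in FSJ, a 2.53-fold rise (adjusted p = 0.0108) and 2.87-fold without replicate 2. YOX1, a repressor of early cell cycle genes, rose 2.35-fold with all arrays (adjusted p = 0.0402). Its highest array was replicate 2 at 216, beside 100.5 and 137, and without it the value was 1.92-fold (adjusted p = 0.112). POL12, a subunit of DNA polymerase alpha, rose by 0.81 and did not pass without replicate 2 (0.77, adjusted p = 0.126). In all, 2 of 38 replication genes and 1 of 24 genes of the start of the cycle rose and none fell, with medians of 0.31 and 0.22, where higher calls made up 0.784% of all genes. Without replicate 2 the rises were 1 and 0. With all arrays no mitotic gene of 23, histone gene of 5 or daughter-specific gene of 15 passed, with medians of 0.02, -0.0033 and -0.07. Without replicate 2 the daughter-specific gene DSE2 fell (log2 -0.85, adjusted p = 0.0231), where lower calls made up 0.97% of all genes.

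Ribosome biogenesis genes shared a sign without single calls. None of 86 passed in either fit, yet 85 of the 86 differences were above 0, with a median of 0.37 beside 0.079 for all genes, and 27 had non-overlapping groups with FSJ higher (background 14.0%). The median was 0.27 without FSJ replicate 2. That array ran above the other FSJ arrays for this list by 0.36 in the median, against 0.02 for all genes. SJ replicate 1 was low for the list. Its summed signal was 25175, beside 33039 and 32486 in SJ replicates 2 and 3. In FSJ replicates 1 to 3 the sum was 36195, 42880 and 35213. Part of the shift thus lies in SJ replicate 1, and the number of genes above 0 without it is not given here. In M25 the list median was -0.02, beside -0.11 for all genes. The median strain difference was 0.35 for the list and 0.20 for all genes. The 81 measured cytosolic ribosomal protein genes had a median of 0.04 and the 69 mitochondrial ones -0.18, with no call in either list.

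**Figure D4:**
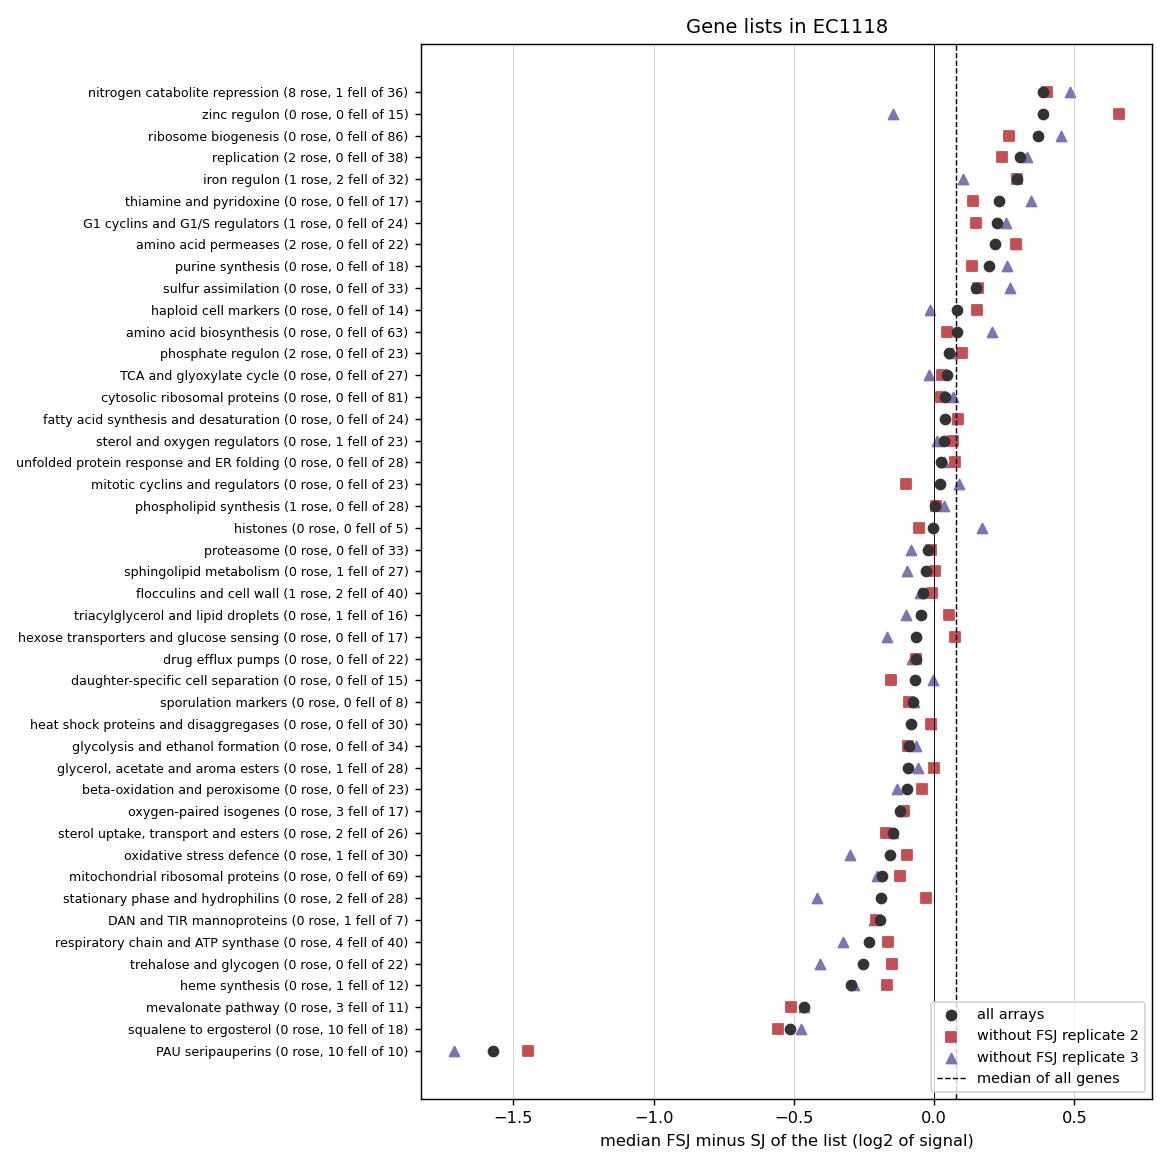
Median log2 difference FSJ minus SJ of each gene list in EC1118, with all arrays (circles), without FSJ replicate 2 (squares) and without FSJ replicate 3 (triangles), and beside each name the members called and measured. The PAU genes lie lowest at -1.57, the dashed line marks the median of all genes at 0.079, and the zinc list moves most between the fits, from -0.15 to 0.66.

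A number of calls were lost without FSJ replicate 2. Of the 113 genes, 44 were not called without it, 21 of 42 that were higher and 23 of 71 that were lower, and none changed sign. The test also has 1 array fewer, so a lost call does not show a smaller effect. A further 9 genes were called only without it, 5 higher and 4 lower. They included ZRC1, a vacuolar zinc transporter, which read 717, 734 and 727 in SJ and 1010.0, 902 and 1548 in FSJ (log2 0.63, adjusted p = 0.086 with all arrays; 0.78, 0.0347 without replicate 2). DED1, a translation initiation helicase, read 1070.4 in replicate 2 beside 1965 and 1639.8 in the other FSJ arrays.

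FSJ replicate 3 stood apart in its zinc genes and in many others. Among 5154 genes over the background on all arrays of an EC1118 group, differences of at least 1 log2 unit were counted. Replicate 3 lay that far above the mean of the other FSJ arrays for 98 genes and below it for 194. For replicate 2 the counts were 61 and 89. The array weight estimated by limma was 0.43 for replicate 3, the lowest of the 12 arrays, and 0.62 for replicate 2. Replicate 3 was the only one of the 12 arrays with any gene at least 4-fold over all the others, and it had 6, a rule chosen after the data were seen. They were ZAP1, the zinc-responsive activator, at 329 against 39.4 to 66.8 on the other 11, ZPS1 at 2123 against 177 to 388, VEL1 at 1125 against 4.9 to 22.3, YOR387C, CSS3 and RTC4. ADH4, an alcohol dehydrogenase of the zinc response, read 5944 there and 512 to 1623 on the other EC1118 arrays. The plasma membrane importer ZRT1 read 3947 there, against 1779 to 2496. Over the 15 genes of the zinc list, replicate 3 lay above the other FSJ arrays by 0.89 on the log2 scale in the median (all genes 0.083). The list median of FSJ minus SJ was 0.39 with all arrays, 0.66 without replicate 2 and -0.15 without replicate 3. The zinc list thus changed sign with 1 array, and none of its members was called with all arrays. Genes of stationary phase and of trehalose and glycogen were also higher in replicate 3, by medians of 0.58 and 0.54, and HSP12, a stress-induced membrane protein, read 557 there beside 146 and 64.1.

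**Figure D5:**
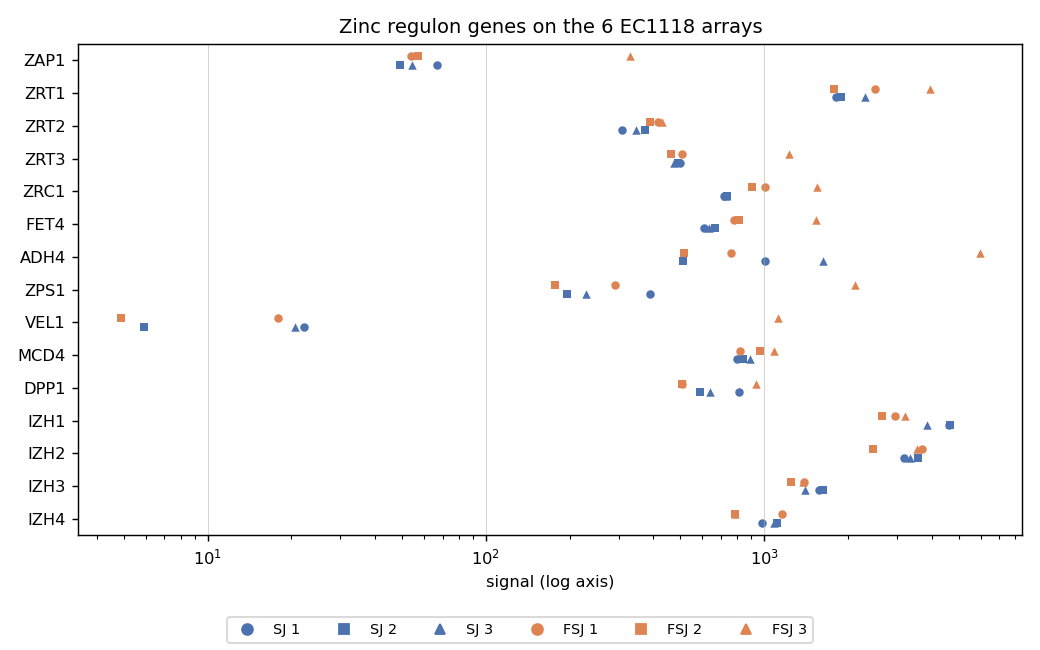
Signal of zinc-regulated genes in the 6 EC1118 arrays on a log axis, with 1 point per array, the media in separate colours and the replicates by shape. FSJ replicate 3 lies above the other 5 arrays for ZAP1 (329 against 49.0 to 66.8), ZPS1 and ADH4.

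In M25 512 genes were called between the same media (9.55%), 161 higher (3.0%) and 351 lower (6.55%). Of the 113 genes called in EC1118, 68 were called in M25 with the same sign, 13 higher and 55 lower, which is 60.2% of the EC1118 calls and 13.3% of those of M25, and none with the opposite sign. A call in 1 strain and not in the other does not show a difference, and the difference itself was called for 10 genes (0.187%). The median of all strain differences was 0.159 over the kept probe sets on the deposited scale and -0.0891 with arrays centred on their medians, so each difference is to be read against that shift. No strain difference was called for HMG1 (-0.61, adjusted p = 0.326), CYC1 (-0.60, adjusted p = 0.350) or MMO1 (1.19, adjusted p = 0.125).

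None of the 10 genes with a strain difference was called in EC1118. PRM7, a pheromone-regulated gene, read 2208, 3047 and 2894 in SJ and 2467, 2566 and 2092 in FSJ in EC1118, with overlapping groups and a log2 difference of -0.19. In M25 it went from 399, 446 and 347 to 58.2, 73.7 and 45.2, so that the strains differed by 2.59 (SE 0.27, adjusted p = 0.00216). The cysteine transporter YCT1 gave 0.37 in EC1118 and 2.04 in M25. SUL1, the sulfate permease, outside the rule for named genes and chosen after its values were seen, lay close to the background in EC1118, and no fold is given. Among 33 sulfur assimilation genes no gene passed in EC1118 and the median was 0.15, where in M25 17 rose and 2 fell with a median of 0.72. No amino acid biosynthesis gene out of 63 passed in EC1118 either, and 13 rose in M25. Calls over all genes made up 2.11% in EC1118 and 9.55% in M25, where 3.0% were higher and 6.55% lower. The strain difference itself was called for 2 of the 33 sulfur genes (1 without replicate 2) and for none of the 63.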

How the data were processed

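Each array's deposited values are intensity, linear and not log-transformed, which MAS5 produced per the submitters' processing notes; the scaling behind them is not given in the sources used here. Trimmed means were nearly equal on all arrays, and no further scaling was applied. From the 9335 probe sets 60 controls were left out, and signals below 1 were raised to 1 before taking log2. Probe sets had to be over the background (the 25th percentile of the array's yeast signals) on at least 3 arrays to stay in. For 257 genes with several such probe sets the brightest stood for the gene. The probe table gave 1 symbol for 6504 probe sets, several for 328 and none for 2443.

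The 4 group means were estimated together from the 12 arrays in limma 3.58.1 (R 4.3.3; lmFit, then eBayes with an intensity trend), with Benjamini-Hochberg adjustment over 7349 probe sets, and the code was tested on simulated data. SE is limma's. A fold against a group with every array under the background is a bound. Named genes had to be over the background on all arrays of an EC1118 group. They were the 15 steepest called rises and 15 steepest called falls, and a set of sterol, hypoxia and stress genes. Up to 4 members of each of 45 lists were added, those with the smallest p in the comparison of media in EC1118. The list members named were thus picked by that same test and need not be typical of their list. Up to 6 per direction came from calls gained or lost without FSJ replicate 2 and from calls in the strain difference. A further 8 per direction were taken to describe FSJ replicate 2. The members and lists were chosen with earlier results of these data known. Alternatives were quantile normalization, median centring, no filter, a filter at 2 times the background, log2(signal + 16), a floor at the background, array weights, no trend, averaged probe sets, a replicate block, the EC1118 arrays alone, and leaving out each EC1118 array. P-values measure the spread between cultures labelled as biological replicates, and the number of arrays limits their precision.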

Additional observations from a re-analysis of the deposited data

Results flagged for a closer look

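For 9 named genes the response to lipids differed between the strains by limma's test of the difference itself (adjusted p under the threshold), each given as EC1118 minus M25 on the log2 scale. The difference was positive for PRM7 (2.59), the vacuolar channel YVC1 (2.36), YLF2 (2.14), the peroxisomal import factor PEX19 (1.84), the mitochondrial metal transporter MMT1 (1.32) and RIT1 (1.08). It was negative for the cysteine transporter YCT1 (-1.67), VBA2 (-1.51) and the mitotic activator CDC20 (-1.46). In all 9 the EC1118 response alone lay between -0.25 and 0.87 and was not called. In M25 the responses were -2.77 for PRM7, -1.49 for YVC1, -2.38 for YLF2, -1.47 for PEX19, -0.98 for MMT1, -0.77 for RIT1, 2.04 for YCT1, 1.57 for VBA2 and 1.28 for CDC20. Without EC1118 in FSJ replicate 2, PRM7 (adjusted p = 0.00672) and VBA2 (0.0429) were called among these 9, and the other 7 had limma adjusted p-values of 0.0628 to 0.0747. YLF2 read 3.4 to 23.1 in M25, near or under the background, and with signals raised to the background its strain difference was -0.045 (adjusted p = 0.930), so its size above is not settled.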

How the results depend on the processing

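Of the 113 called genes, 53 (15 higher, 38 lower) were called in all 6 fits that left out 1 EC1118 array, 52 in all 16 alternatives with at least 11 arrays and 17 in all 18, and none changed sign in any. Leaving out 1 array gave 76 (without SJ replicate 2) to 145 calls (without FSJ replicate 3), with 120 without FSJ replicate 1, 78 without FSJ replicate 2, 77 without SJ replicate 1 and 85 without SJ replicate 3. Fits on the 6 EC1118 arrays alone gave 36 calls (5 higher, 31 lower) and on 5 of them 20 (2 and 18), with fewer arrays for the spread. The other alternatives gave 94 (no trend) to 128 calls (signals raised to the background). The same replicate numbers did not pair the samples: their deviations correlated at -0.0167 to 0.137 in EC1118 and -0.16 to 0.0791 in M25. With the replicate number as a block 103 genes were called in EC1118 and 2 for the strain difference. That count, 10 on the deposited scale, was 39 (4 positive, 35 negative) with median centring, 6 with log2(signal + 16), 6 with the stricter filter, 5 with quantile normalization and 2 to 11 without 1 array (4 without FSJ replicate 2 or 3, 2 without SJ replicate 1 or 3, 5 without SJ replicate 2). The cause was not tested. YLF2 went from 2.14 to -0.045 with signals raised to the background, and its M25 signals lie near or under that level. Over the named genes and alternatives 3877 values kept direction and side of the threshold, 263 lost the call and 100 gained it. No called gene changed sign, while 24 genes that were not called did so in 63 values, the cause of which was not tested. Of 10 list medians of 0.25 or more in size, only that of the zinc list changed sign. Signals near the background, such as those of SUE1 and HPA2 with lipids, limit the size of a fold.

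The genes that were not called and changed sign had these values. With 1 EC1118 array left out, the log2 difference ran from -0.064 to 0.94 for ARG3, -0.34 to 0.99 for ARG8, -3.64 to 0.10 for BOL3, -0.016 to 0.53 for CLB3, -0.20 to 0.19 for CSE4 and -0.21 to 0.011 for ERG25. The range was -2.84 to 0.14 for GCN1, -3.06 to 0.017 for GEA2, -0.42 to 0.61 for GFD1, -0.59 to 0.024 for HEM13, -0.21 to 0.022 for HMG2 and -3.69 to 0.26 for HOB2. It went from -1.09 to 0.47 for HSP12, -0.28 to 0.021 for HTB1, -0.084 to 0.041 for HTZ1, -0.034 to 0.10 for INO1, -0.54 to 0.85 for KRE33 and -2.55 to 0.45 for RDN5-1. The remaining ranges were -0.48 to 1.14 for RRP7, -0.88 to 0.050 for SIM1, -0.084 to 0.17 for TIR1, -3.13 to 0.0008 for USO1, -0.044 to 0.13 for VBA2 and -2.58 to 0.60 for YPL216W. On the 5 EC1118 arrays alone the values were -0.064 for ARG3, -0.34 for ARG8, 0.10 for BOL3, -0.20 for CSE4, 0.14 for GCN1, 0.017 for GEA2 and -0.42 for GFD1. They were 0.26 for HOB2, 0.47 for HSP12, 0.014 for HTB1, -0.0046 for INO1, -0.48 for RRP7, 0.0008 for USO1 and 0.60 for YPL216W. Median centring gave -0.017 for CSE4, -0.040 for INO1, -0.034 for TIR1 and -0.0027 for VBA2. Quantile normalization gave -0.045 for CSE4, -0.016 for GFD1, -0.029 for RRP7 and -0.032 for VBA2. Array weights gave 0.23 for KRE33. The log2(signal + 16) scale gave 0.052 for KRE33. Signals raised to the background gave 0.032 for YPL216W.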

Other observations

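Transfer RNA genes were higher with lipids in EC1118, a group chosen after its values were seen. Of 86 measured, 6 rose and none fell (3 without FSJ replicate 2), 46 had non-overlapping groups with FSJ higher and none with FSJ lower, and the median was 0.54 on the log2 scale, with 0.43 to 0.65 over the alternatives. Over all genes higher calls made up 0.784% and non-overlapping groups with FSJ higher 14.0%. YNCJ0011W had the largest rise among them (1.46), followed by YNCM0035C (1.20) and YNCB0015W (0.91). The M25 median was 0.40. All but 2 were read by family probe sets, which can detect near-identical copies, and the labelling of such short RNA was not analysed here.

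For 4 genes that were not called, a dimmer second probe set passed the test. UGA4, the GABA permease, gave 1.71 at the second probe set and 0.94 at the brightest (log2 differences). SUC2, invertase, gave -1.29 and -0.59, the drug pump PDR5 -0.69 and -0.26, and DBP2, an RNA helicase, 0.52 and 0.41. The sign was shared in each pair.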
